A study of Caenorhabditis elegans with 40 samples.

Results

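Argonaute proteins bind small RNAs and use them as guides to find target transcripts. Of a list of 10 C. elegans Argonaute genes, 9 had a row among the 11933 genes of the UMI count table, and all 9 passed the filter that left 8110 genes for testing. alg-5 had no row and was not analysed here. The list was fixed by gene name, with no threshold on measured values. alg-3 and alg-4 are the sperm-linked members, and alg-1, alg-2, prg-1, csr-1, wago-1, hrde-1 and ergo-1 are the general ones. RNA of whole, pooled animals was counted by a 3′ method with unique molecular identifiers (UMIs) in males that carried dpy-28(y1);him-8(e1489), set against wild-type N2 hermaphrodites, at the larval stages L1, L2, L3 and L4 and in young adults (YA), all at 25 °C. Each of the 10 stage-by-sex groups held 4 biological repeats, 40 libraries in all. Every male library carried both mutations and no hermaphrodite library did, and the effect of sex cannot be told apart from that of the strain. dpy-28 encodes a subunit of the dosage compensation complex, whose loss is lethal to XX animals, and the him-8 mutation raises the frequency of XO males. Animals with fewer cells of a type and animals with less RNA per cell cannot be told apart in such whole-animal libraries.

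In worms, microRNAs act through ALG-1 and ALG-2, mostly in somatic tissues, where they silence messengers that time larval development. In the germline, PRG-1 carries the piRNAs that recognise foreign sequences, WAGO-1 and the nuclear HRDE-1 carry the secondary small RNAs that silence those targets and pass silencing to progeny, and CSR-1 carries small RNAs against genes that the germline keeps active. Primary small interfering RNAs are bound by ALG-3 and ALG-4 during spermatogenesis, where these are needed for male fertility at high temperature, and by ERGO-1 in the oocyte and embryo.

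The members are spread over all 6 chromosomes (WBcel235). alg-3 (WBGene00011910) lies on chromosome IV at 11704246-11708264 and alg-4 (WBGene00006449) on chromosome III at 9887209-9891424. alg-1 is the X-linked member, at 13949110-13956261. alg-2 lies on chromosome II at 873212-879885, ergo-1 on chromosome V at 1008803-1018352, csr-1 on chromosome IV at 7957267-7962157 and hrde-1 on chromosome III at 4172337-4176159. On chromosome I, wago-1 lies at 7235384-7238792 and prg-1 at 7585329-7588367. All are protein-coding, and no other gene of the count table overlaps any of them. alg-3 and alg-4, alg-1 and alg-2, and prg-1 and prg-2 are pairs of close relatives, and reads shared within a pair could have been split or dropped in counting, so that values within a pair are less certain.

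Library totals ran between 1724365 and 14129759 UMIs, with a median of 5616412. Levels are given as CPM, UMI counts scaled to a common effective library size, which are compared between groups and not between genes. Marker genes followed the labels. The summed level of 47 sperm genes was 18295 to 21412 CPM in YA males and 3296 to 6450 CPM in YA hermaphrodites, and that of 19 oocyte genes was 263 to 269 CPM in YA males and 3500 to 10982 CPM in YA hermaphrodites. The YA hermaphrodite libraries were uneven: repeats 2 and 3 had 10895 and 10982 CPM of oocyte genes, against 3500 and 4558 CPM in repeats 1 and 4. Repeats 2 and 3 were also deeper, with 5450105 and 6096830 UMIs, against 2479432 and 3533092 in repeats 1 and 4. The factors that scale totals to effective library size were 0.595 and 0.534 in repeats 2 and 3, which raises their CPM. In repeats 1 and 4 these factors were 1.03 and 1.03. For 22 genes expressed in the germline of both sexes, repeats 2 and 3 had 4051 and 4154 CPM, against 922 and 1371 CPM in repeats 1 and 4. Repeats 1 and 4 also held 32.95 and 27.20 CPM of 3 genes of seminal fluid and the vas deferens, which were at 0.308 and 0 CPM in repeats 2 and 3 and at 444 to 535 CPM in YA males. Sex differences of the members called at YA are therefore given with all repeats and with repeats 2 and 3 only, and the further genes with all repeats. The part of these differences in the results was not tested. Summed levels of 7 body wall muscle genes were higher in males at all 5 stages, with 16402 to 18410 CPM in YA males and 3550 to 8700 CPM in YA hermaphrodites, although only 1 of the 7 was called at L1 and 3 at YA.

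Sex differences of the Argonaute genes, like those of all genes tested, were few in early larvae and many in young adults. A gene was called enriched in males or in hermaphrodites at an adjusted p of at most 0.05 (edgeR quasi-likelihood test, Benjamini-Hochberg over all 8110 genes), a log2 fold change of at least 1 in size and a mean normalised count of at least 5. At L1, prg-1 was enriched in males, 1 of 9 members, where 3.33% of all genes tested were called higher and 2.95% lower in males. At L2 no member was called in either direction, beside 0.493% and 0.210% of all genes. At L2 no member had an unadjusted p of at most 0.05 except prg-1, at 0.00848. At L3 both alg-3 and alg-4 were enriched in males and no member in hermaphrodites, beside 7.68% and 0.937% of all genes. At L4 alg-4 was enriched in males, while prg-1, wago-1 and hrde-1 were enriched in hermaphrodites, beside 14% and 14.3% of all genes. At YA alg-3, alg-4 and csr-1 were enriched in males, and alg-2, ergo-1 and hrde-1 in hermaphrodites, beside 22.5% and 22.1% of all genes. The median log2 fold change of the 9 members was 0.31 at L3, -0.11 at L4 and 0.48 at YA, against 0.025, 0.051 and -0.001 over all genes tested.

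**Figure D1:**
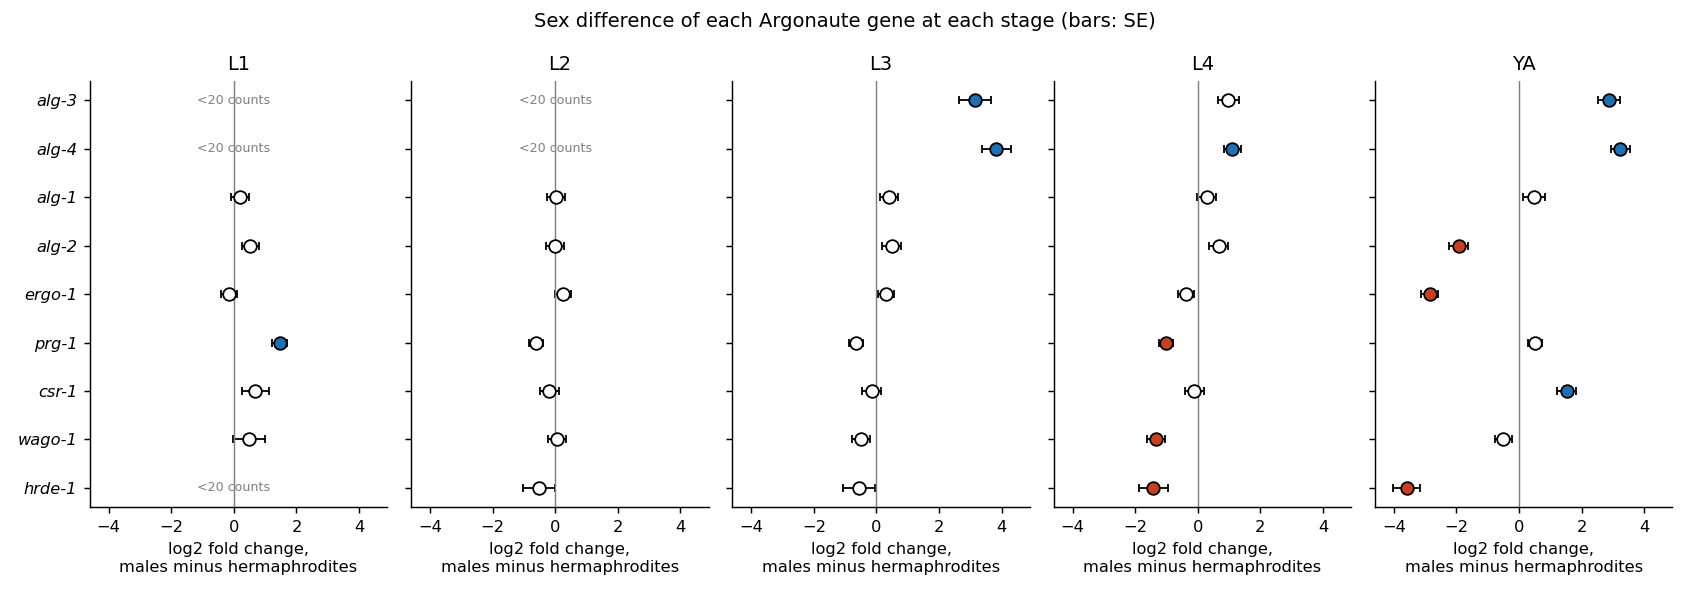
Log2 fold change of each Argonaute gene, males minus hermaphrodites, with its standard error, at each stage. Blue points were called higher in males, red points called higher in hermaphrodites and white points not called; genes with fewer than 20 counts over both sexes are not drawn. The 2 sperm-linked genes at the top lie to the right at L3, L4 and YA, and the general genes spread to both sides at YA.

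The sperm-linked members were near 0 at L1 and L2, and at L3 they were higher in males than in hermaphrodites. In the 16 libraries of L1 and L2, alg-4 had no count at all, which allows up to 0.181 CPM in L1 males, 0.0636 CPM in L1 hermaphrodites, 0.138 CPM in L2 males and 0.123 CPM in L2 hermaphrodites (a floor of 3 counts over the group, counting error only). alg-3 had a count in 11 of these 16 libraries, and at most 3 counts in any of them. At L3, alg-4 had 4.48, 6.58, 4.903 and 6.61 CPM in the 4 male libraries, against 0.371, 0.645, 0.357 and 0 CPM in the hermaphrodite libraries. Every male library was above every hermaphrodite library, and 8 counts made up the whole hermaphrodite group. The log2 fold change was 3.83 ± 0.45 (SE, adjusted p = 4.06e-07). alg-3 had 4.78, 5.72, 5.25 and 3.11 CPM in L3 males, against 0.556, 0.806, 0.536 and 0 CPM in L3 hermaphrodites. Again the groups did not overlap, with a log2 fold change of 3.15 ± 0.50 (adjusted p = 9.93e-06). The 47 sperm genes were at 653 to 768 CPM in L3 males and 101 to 157 CPM in L3 hermaphrodites, and 32 of the 43 that were tested were called higher in males.

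At L4, the stage at which hermaphrodites make their sperm, both genes were higher than at L3 in both sexes, and the sex difference was smaller. alg-4 had 25.1, 33.8, 32.9 and 33.7 CPM in L4 males, against 12.2, 15.1, 16.2 and 14.7 CPM in L4 hermaphrodites, without overlap (log2 fold change 1.11 ± 0.28, adjusted p = 0.003). alg-3 had 20.7, 27.2, 21.7 and 23.1 CPM in L4 males, against 12.5, 7.91, 12.4 and 13.7 CPM in L4 hermaphrodites, also without overlap. Its log2 fold change of 0.98 ± 0.33 (adjusted p = 0.0176) passed the test but missed the fold limit. It was called at 1.14 by DESeq2 (adjusted p = 0.00122), and at 1.01 to 1.07 when any of L4 male repeats 1 and 3 and L4 hermaphrodite repeats 1, 3 and 4 was left out. Relative to L3, alg-4 rose 5.60-fold in males and 37.0-fold in hermaphrodites, and alg-3 rose 4.93-fold in males and 22.1-fold in hermaphrodites (adjusted p at most 1.94e-06 in each). The change of the sex difference between L3 and L4 was itself called for both genes, at -2.72 ± 0.55 for alg-4 (adjusted p = 0.00182) and -2.17 ± 0.61 for alg-3 (adjusted p = 0.0177). For alg-3 it was not called without L3 hermaphrodite repeat 4, at -1.85 (adjusted p = 0.0564). Nor was it called with counts thinned to the smallest library, at -1.48 (adjusted p = 0.19). The sperm genes took a like course. Of the 43 tested, 42 were called higher at L4 than at L3 in each sex. Their median log2 fold change between the sexes was 2.57 at L3 and 1.27 at L4, and the change was itself called for 8 of them.

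In young adults the sperm-linked members rose further in males and not in hermaphrodites. alg-4 had 89.6, 102, 103 and 69.6 CPM in YA males, against 3.14, 14.2, 9.83 and 10.99 CPM in YA hermaphrodites. alg-3 had 73.1, 73.2, 85.6 and 59.4 CPM in YA males, against 2.35, 14.2, 15.4 and 7.42 CPM in YA hermaphrodites. In both genes the lowest male library was more than 3-fold above the highest hermaphrodite library, and hermaphrodite repeat 1 was the lowest library. The fold change was 9.40 for alg-4 (log2 3.23 ± 0.31, adjusted p = 8.61e-10) and 7.31 for alg-3 (log2 2.87 ± 0.35, adjusted p = 6.49e-09). With hermaphrodite repeats 2 and 3 only, the log2 fold changes were 2.93 (adjusted p = 7.24e-10) and 2.31 (adjusted p = 4.28e-08). Between L4 and YA, alg-4 rose 2.90-fold and alg-3 3.14-fold in males (adjusted p = 9.11e-05 and 0.000117). The corresponding log2 fold changes in hermaphrodites were -0.59 ± 0.30 (adjusted p = 0.0962) and -0.24 ± 0.35 (adjusted p = 0.577). The sex difference changed between L4 and YA by 2.12 ± 0.41 for alg-4 (adjusted p = 0.000191) and by 1.89 ± 0.47 for alg-3 (adjusted p = 0.00179). For the 43 sperm genes tested, the median log2 fold change between the sexes was 2.66 at YA. Their median change between L4 and YA was 1.28 in males and 0.20 in hermaphrodites. The change of their sex difference was called toward males for 12 and toward hermaphrodites for 1.

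**Figure D2:**
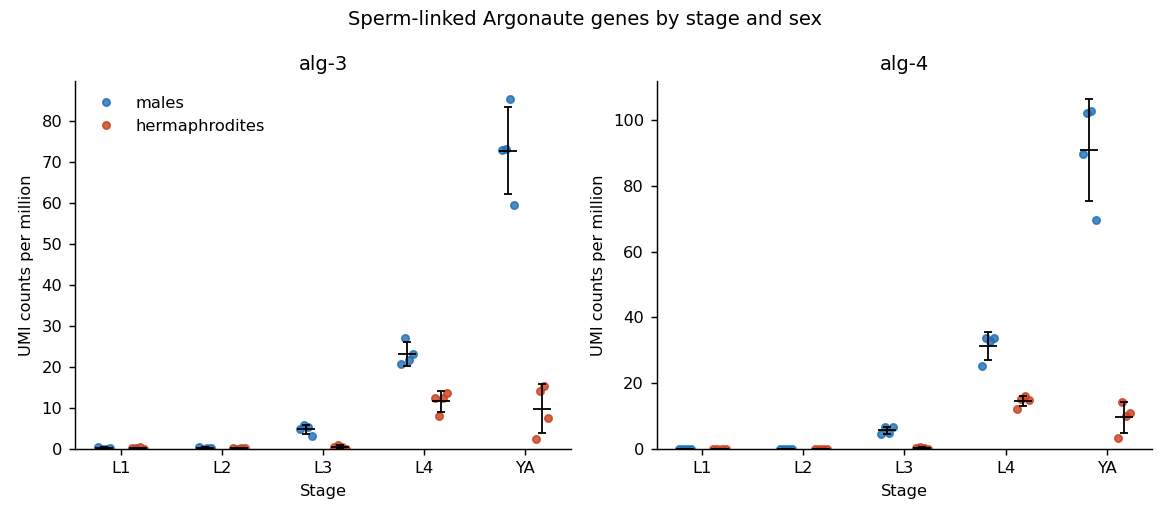
CPM of alg-3 (left) and alg-4 (right) by stage. Each point is 1 library, males in blue to the left of hermaphrodites in red, and black bars give the mean and SD of 4 libraries. Male levels climb at L3, L4 and YA, whereas hermaphrodite levels climb at L4, to a mean of 11.6 CPM for alg-3 and 14.6 CPM for alg-4, and at YA overlap those of L4.

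alg-3 and alg-4 followed each other closely. Pearson's r between their log2 CPM was 0.991 over 40 libraries, which share stage and sex. alg-4 made up 57.4% of the counts of the pair in L4 males (exact 95% interval 54.1 to 60.7%) and 54.5% in L4 hermaphrodites (50.1 to 58.9%). At YA it made up 55.7% in males (54.1 to 57.2%) and 49.4% in hermaphrodites (43.1 to 55.7%). These intervals overlap between the sexes at L4 and at YA and cover counting error only. Outside the members, the genes most like alg-4 were wht-4 (r = 0.994), Y43F8A.2 (r = 0.992) and ZK1010.5 (r = 0.991), and those most like alg-3 were Y43F8A.2 (r = 0.988), wht-4 (r = 0.986) and rnh-1.1 (r = 0.986). wht-4, an ABC transporter gene, had no count at L2 in either sex and averaged 44.7 CPM in YA males and 5.52 CPM in YA hermaphrodites.

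The share of the sperm-linked members in the summed CPM of the 9 members, further Argonautes left out, differed between the sexes. alg-3 and alg-4 together made up 7.30% ± 0.83 (SD, n = 4) of the summed CPM of the 9 members in L3 males and 0.54% ± 0.39 in L3 hermaphrodites. At L4 they made up 30.4% ± 1.28 in males and 10.98% ± 0.68 in hermaphrodites. At YA they made up 48.4% ± 1.73 in males and 4.96% ± 1.34 in hermaphrodites. The lowest male library was above the highest hermaphrodite library at each of these stages. The general members summed to 175 ± 28.4 CPM in YA males and 349 ± 136 CPM in YA hermaphrodites. These sums overlapped, with hermaphrodite repeat 1, at 180 CPM, inside the male range of 146 to 206 CPM. A difference of the sums was not tested. Within YA hermaphrodites the pair did not follow the sperm genes. alg-3 and alg-4 summed to 5.49, 28.4, 25.2 and 18.4 CPM in repeats 1 to 4, where the sperm genes summed to 6392, 3296, 3955 and 6450 CPM. The 2 libraries with the lower sperm gene levels thus held the higher alg-3 and alg-4 levels in CPM. For the pair this order depends on the scaling, whose factors of 0.595 and 0.534 raise the CPM of repeats 2 and 3. The ratio of the sperm gene sum to that of the pair does not change with the scaling. It was 1164, 116, 157 and 350 in repeats 1 to 4, where repeat 1 held 6 counts of alg-3 and 8 of alg-4.

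**Figure D3:**
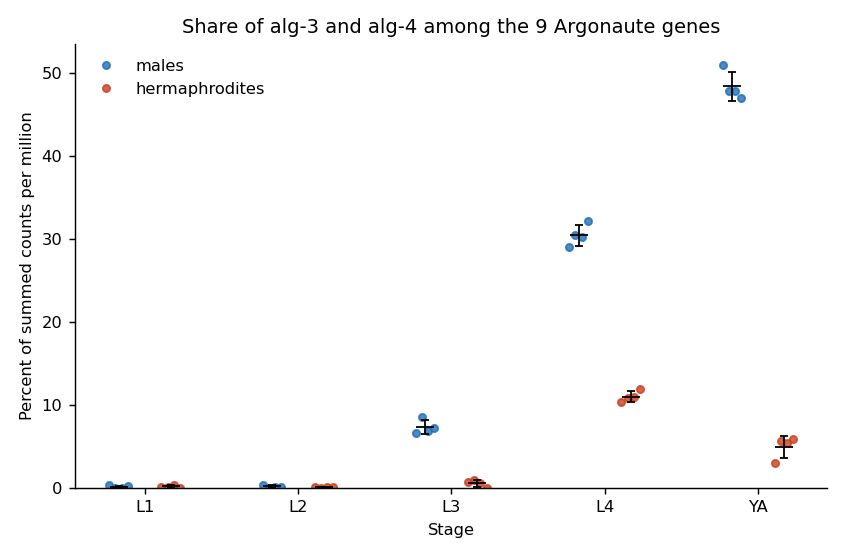
Share of alg-3 and alg-4 in the summed CPM of the 9 Argonaute genes, in percent. Each point is 1 library, males in blue to the left of hermaphrodites in red, and black bars give the mean and SD of 4 libraries. YA male libraries lie between 47.0% and 50.9%, and YA hermaphrodite libraries between 2.97% and 5.83%.

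Of the general germline members, prg-1, the piRNA-binding Argonaute, turned its sex difference round during development. At L1 it had 37.5, 19.1, 27.1 and 21.4 CPM in males, against 11.3, 5.10, 11.5 and 9.95 CPM in hermaphrodites. Males were higher without overlap (log2 fold change 1.46 ± 0.23, adjusted p = 4.18e-05). The 22 genes of the germline of both sexes summed to 52.4 to 67.7 CPM in L1 males and 30.1 to 49.1 CPM in L1 hermaphrodites, and their part in the difference was not tested. At L4 it had 52.7, 64.2, 68.1 and 56.6 CPM in males, against 130, 107, 132 and 118 CPM in hermaphrodites. Here males were lower without overlap (log2 fold change -1.01 ± 0.22, adjusted p = 0.000396), by an amount at the fold limit. The call was lost at -0.98 to -0.95 when any of L4 male repeats 1, 2 and 4 and L4 hermaphrodite repeats 1 and 3 was left out, and at -0.855 by DESeq2 (adjusted p = 0.000211). At L3 the log2 fold change was -0.66 ± 0.22 (adjusted p = 0.0454), which misses the fold limit. At YA it had 92.3, 115, 119 and 76.3 CPM in males, against 76.9, 46.0, 53.5 and 106 CPM in hermaphrodites. These groups overlapped through hermaphrodite repeats 1 and 4 (log2 fold change 0.51 ± 0.22, adjusted p = 0.0454). With repeats 2 and 3 only, it was called at 1.03 (adjusted p = 0.000153). The sex difference changed by 1.52 ± 0.31 between L4 and YA (adjusted p = 0.000188). The genes most like prg-1 were hpo-32 (r = 0.90), iff-1 (r = 0.888), a germline translation factor gene, and its relative prg-2 (r = 0.886).

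csr-1, whose small RNAs mark germline genes that stay active, became dimorphic at YA. It had 11.5, 14.8, 18.2 and 10.1 CPM in YA males, against 2.75, 5.86, 6.14 and 4.12 CPM in YA hermaphrodites. All male libraries were higher, by 2.87-fold (log2 1.52 ± 0.29, adjusted p = 2.80e-05). With hermaphrodite repeats 2 and 3 only, the log2 fold change was 1.19 (adjusted p = 0.0026). At L2, L3 and L4 its log2 fold changes lay between -0.18 and -0.11, with overlapping groups. It rose in YA males relative to L4 males by 2.60-fold (adjusted p = 0.000211), and the sex difference changed by 1.63 ± 0.42 (adjusted p = 0.00206). csr-1 is transcribed as a long and a short isoform, which these 3′ counts do not separate.

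wago-1 and hrde-1 were enriched in hermaphrodites at L4. At that stage the germline genes of both sexes summed to 377 to 426 CPM in males and 576 to 617 CPM in hermaphrodites, and the oocyte genes to 90.3 to 131 CPM in males and 855 to 970 CPM in hermaphrodites. Their part in these differences was not tested. wago-1, a silencing Argonaute of the perinuclear germ granules, had 13.2, 11.9, 10.0 and 13.7 CPM in L4 males, against 26.4, 24.5, 35.8 and 35.7 CPM in L4 hermaphrodites. The groups were apart (log2 fold change -1.34 ± 0.28, adjusted p = 0.000241). At YA, wago-1 overlapped between the sexes, at 20.9 to 28.3 CPM in males and 24.7 to 52.7 CPM in hermaphrodites (log2 fold change -0.50 ± 0.27, adjusted p = 0.109; -0.29 with hermaphrodite repeats 2 and 3 only). hrde-1, the nuclear Argonaute of inherited silencing, had 2.51, 3.30, 4.43 and 1.95 CPM in L4 males, against 6.76, 6.78, 13.5 and 5.81 CPM in L4 hermaphrodites. Males were lower in every library (log2 fold change -1.42 ± 0.46, adjusted p = 0.0125), but without hermaphrodite repeat 3 the gene was not called, at -1.05 (adjusted p = 0.0929).

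At YA, hrde-1 had the widest difference of the general members. It had 4.77, 7.19, 7.62 and 6.89 CPM in males, against 13.7, 138, 133 and 34.3 CPM in hermaphrodites. The groups did not overlap, and the hermaphrodite libraries were themselves uneven, with repeats 2 and 3 high and repeats 1 and 4 low, as for the oocyte genes. Males were lower by 12.06-fold (log2 fold change -3.59 ± 0.42, adjusted p = 3.43e-09). With hermaphrodite repeats 2 and 3 only, the log2 fold change was -4.35 (adjusted p = 2.46e-16). In hermaphrodites hrde-1 rose 9.60-fold between L4 and YA (log2 fold change 3.26, adjusted p = 2.72e-08), and by a log2 fold change of 4.01 with repeats 2 and 3 only (adjusted p = 2.39e-15). In males the log2 fold change was 1.09 ± 0.46 (adjusted p = 0.0652), and the sex difference changed by -2.17 ± 0.61 (adjusted p = 0.00503). With repeats 2 and 3 only it changed by -2.92 (adjusted p = 1.07e-07), and with counts thinned to the smallest library it was not called, at -1.67 (adjusted p = 0.058). At L1 the gene was barely detected, with 5 counts in males and 6 in hermaphrodites.

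ergo-1, the Argonaute of oocyte and embryo small interfering RNAs, was nearly level until L4 and then parted by sex. Its group means lay between 24.5 and 36.9 CPM at L1 to L4 in both sexes, and no sex difference was called there. At YA it had 17.9, 15.2, 21.0 and 19.03 CPM in males, against 49.04, 207.3, 188 and 86.5 CPM in hermaphrodites. Hermaphrodite repeats 2 and 3 were again the highest, and repeat 1, the lowest, was still above every male library. Males were lower by 7.26-fold (log2 fold change -2.86 ± 0.27, adjusted p = 1.50e-11), and with repeats 2 and 3 only by a log2 fold change of -3.43 (adjusted p = 4.09e-19). ergo-1 rose 4.14-fold between L4 and YA in hermaphrodites (adjusted p = 1.49e-08), against a log2 fold change of -0.43 ± 0.26 in males (adjusted p = 0.215). The sex difference changed by -2.48 ± 0.36 (adjusted p = 1.81e-06).

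Of the microRNA Argonautes, alg-2 was called dimorphic at YA and alg-1 at no stage with all libraries and counts. alg-2 had 4.93, 5.90, 6.58 and 6.16 CPM in YA males, against 11.4, 36.1, 29.5 and 12.9 CPM in YA hermaphrodites. The groups were apart, with repeats 2 and 3 the highest hermaphrodite libraries (log2 fold change -1.93 ± 0.30, adjusted p = 1.01e-06). With repeats 2 and 3 only, the log2 fold change was -2.47 (adjusted p = 6.49e-10). Its mean was highest in L1 males, at 30.5 ± 6.98 CPM, with 21.0 ± 6.93 CPM in L1 hermaphrodites, and both ranges overlapped that of YA hermaphrodites. The sex difference changed by -2.60 ± 0.43 between L4 and YA (adjusted p = 1.36e-05).

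alg-1, on the X chromosome, declined in both sexes together. It averaged 30.8 ± 3.80 CPM in males and 26.8 ± 6.38 CPM in hermaphrodites at L1, and 5.70 ± 0.96 CPM in males and 4.04 ± 3.55 CPM in hermaphrodites at YA. Log2 fold changes between the sexes lay between 0.03 and 0.48 over the 5 stages, with adjusted p between 0.24 and 1. The decline passed the call at L4 relative to L3, with log2 fold changes of -1.36 ± 0.30 in males (adjusted p = 0.000376) and -1.24 ± 0.30 in hermaphrodites (adjusted p = 0.00129). In YA hermaphrodites alg-1 had 1.18, 7.71, 6.45 and 0.824 CPM in repeats 1 to 4, against 4.601 to 6.93 CPM in YA males. Repeats 1 and 4, with 3 counts each, thus lay below every male library. Without repeat 2 the gene was called higher in males, at 1.01 (adjusted p = 0.0191), as it was with thinned counts, at 1.13 (adjusted p = 0.0317), and with repeats 2 and 3 only the log2 fold change was -0.31 (adjusted p = 0.339). The genes most like alg-1 were arrd-18 (r = 0.958), spc-1, alpha spectrin (r = 0.952), and unc-70, beta spectrin (r = 0.941).

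**Figure D4:**
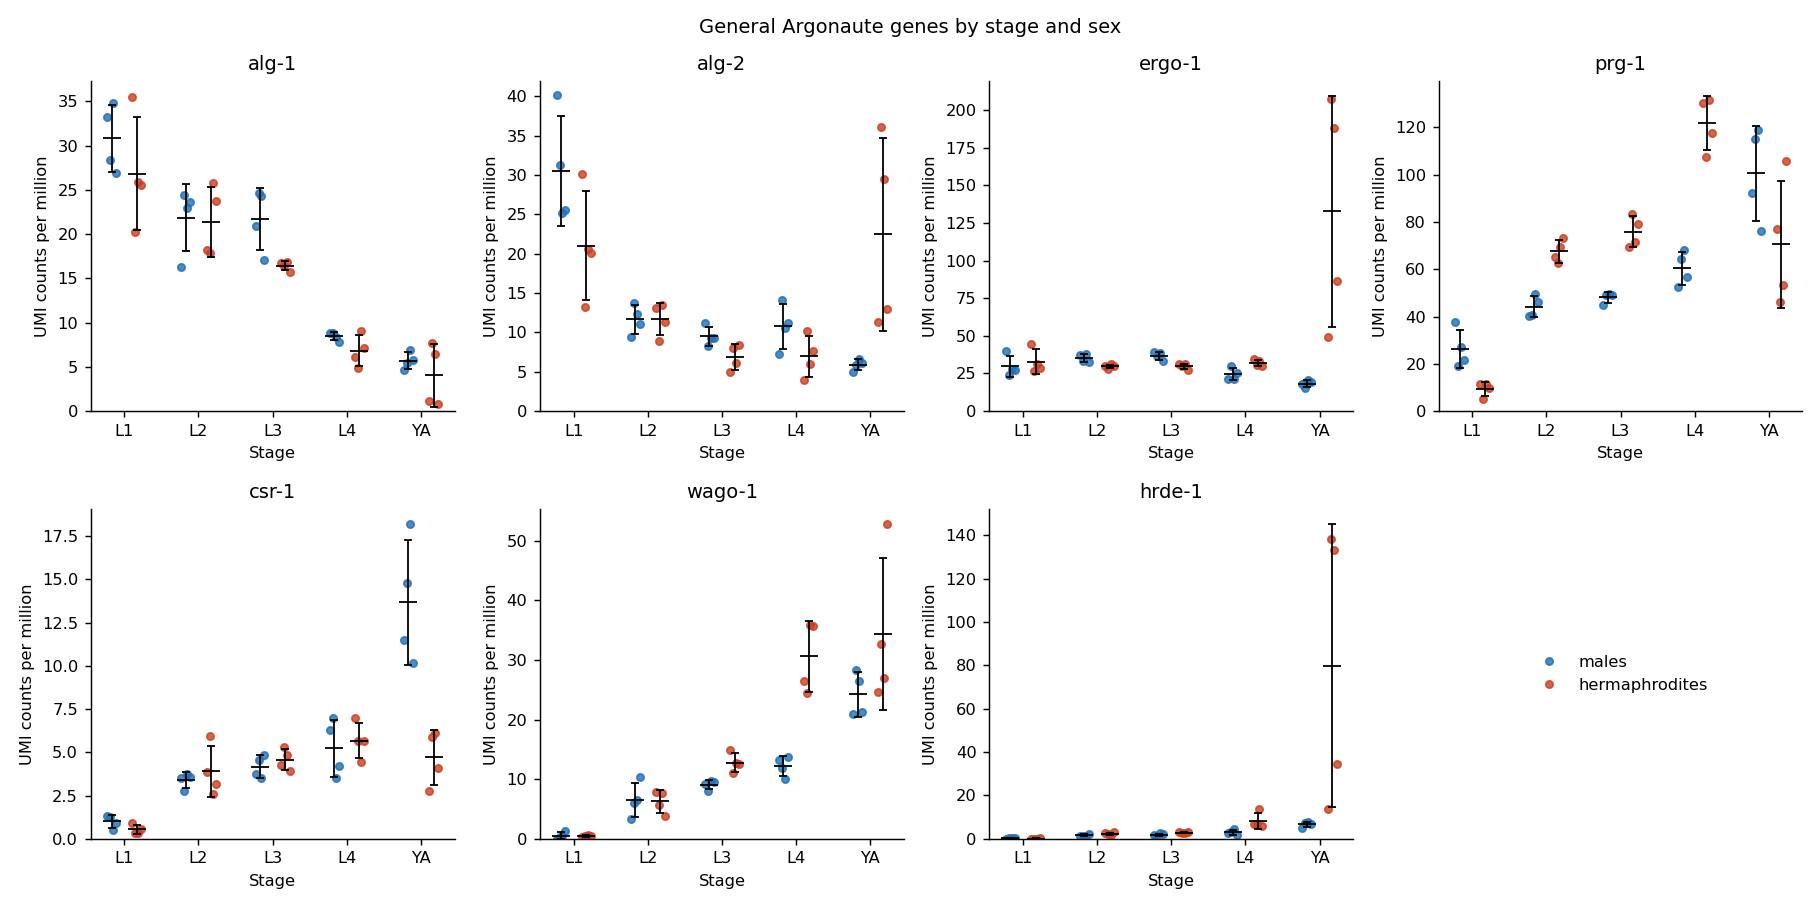
CPM of the 7 general Argonaute genes by stage, each panel with its own vertical axis. Each point is 1 library, males in blue to the left of hermaphrodites in red, and black bars give the mean and SD of 4 libraries. alg-1 falls in both sexes, alg-2, ergo-1 and hrde-1 are high in YA hermaphrodites with a wide spread, and csr-1 is high in YA males.

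**Figure D5:**
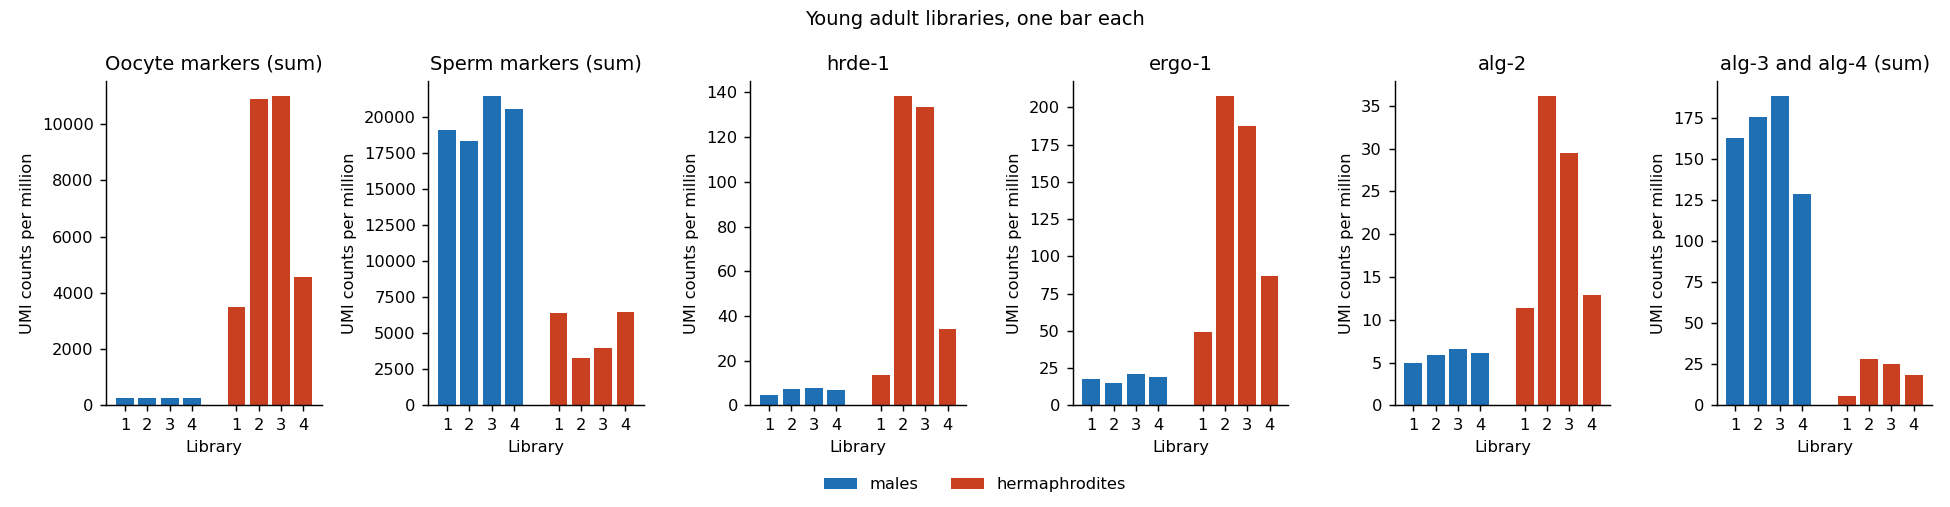
CPM in each YA library, 1 bar per library, for the summed oocyte genes, the summed sperm genes, hrde-1, ergo-1, alg-2, and alg-3 and alg-4 together. Males are blue and stand to the left of hermaphrodites in red. hrde-1, ergo-1 and alg-2 are high in hermaphrodite repeats 2 and 3, the libraries with 10895 and 10982 CPM of oocyte genes.

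The stage comparisons within each sex gave calls of germline members at early and late steps, and of the sperm-linked members from L3 on. At L2 relative to L1, csr-1, wago-1 and hrde-1 were called higher in males, 3 of 9 members, where 10.9% of all genes rose and 8.29% fell. The same 3 and prg-1 were called higher in hermaphrodites, where 14.8% rose and 15.8% fell. Of 18 genes of the germline of both sexes, 10 were called higher at this step in males and 12 in hermaphrodites. Their median log2 fold changes were 1.63 and 1.86, and their part in the rise of the members was not tested. wago-1 averaged 6.55 CPM at L2 and 0.54 CPM at L1 in males, a 9.88-fold rise (adjusted p = 9.26e-08), and 6.26 CPM at L2 and 0.48 CPM at L1 in hermaphrodites, a 13.2-fold rise (adjusted p = 1.11e-10). Without L1 male repeat 4 the log2 fold change of wago-1 in males was 4.16 (adjusted p = 7.55e-08), against 3.30 with it. csr-1 rose 3.60-fold in males (adjusted p = 0.000238) and 6.60-fold in hermaphrodites (adjusted p = 1.89e-08). With thinned counts the log2 fold change in males was 0.96 and not called (adjusted p = 0.164), against 1.85 with all counts, and that in hermaphrodites was 3.70 (adjusted p = 1.9e-07), against 2.72. prg-1 averaged 67.5 ± 4.76 CPM at L2 and 9.45 ± 2.98 CPM at L1 in hermaphrodites, a 7.14-fold rise (adjusted p = 2.26e-12), whereas the 1.70-fold difference in males (adjusted p = 0.00955) missed the fold limit. hrde-1 rested on 35 counts at L2 and 5 at L1 in males (log2 fold change 2.35 ± 0.77, adjusted p = 0.0195). It was not called without L1 male repeat 3 (adjusted p = 0.071) or L2 male repeat 4 (adjusted p = 0.0586), and the log2 fold change was 3.05 without L1 male repeat 4. In hermaphrodites hrde-1 had 56 counts at L2 and 6 at L1 (log2 fold change 3.97 ± 0.65, adjusted p = 5.02e-06). alg-2 fell by 1.38 on the log2 scale in males (adjusted p = 0.00038).

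At L3 relative to L2, alg-3 and alg-4 were the members called in males, where 11.3% of all genes rose and 1.78% fell. alg-3, with 98 counts at L3 and 4 at L2, rose in males by a log2 fold change of 4.51 (adjusted p = 1.08e-07), which was 3.58 with thinned counts (adjusted p = 0.000119), and alg-4, with 115 counts at L3 and none at L2, was at least 39.5-fold higher. In hermaphrodites 8.04% rose and 2.33% fell, and alg-4 and wago-1 were called. alg-4 was at least 3.05-fold higher there on 8 counts, and the call was lost without L3 hermaphrodite repeat 2 (adjusted p = 0.0516). alg-3 had 11 counts at L3 and 3 at L2 in hermaphrodites, a ratio of 4.20 (95% counting interval 1.11 to 23.4). wago-1 rose by a log2 fold change of 1.02 ± 0.29 (adjusted p = 0.012), at the fold limit. It lost its call when any of L2 hermaphrodite repeats 2 and 4, L3 hermaphrodite repeat 1 and L4 male repeat 2 was left out, at 0.85 to 0.98.

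At L4 relative to L3, alg-3 and alg-4 rose in both sexes as given above and alg-1 fell in both. wago-1 and hrde-1 rose in hermaphrodites only by this call, with log2 fold changes of 1.27 ± 0.28 (adjusted p = 0.000325) and 1.53 ± 0.45 (adjusted p = 0.00726), beside 0.42 ± 0.29 (adjusted p = 0.268) and 0.67 ± 0.51 (adjusted p = 0.327) in males. With thinned counts the value of wago-1 in hermaphrodites was 0.956 and missed the fold limit (adjusted p = 0.0204). The difference between the sexes in this step was not called for either gene (adjusted p = 0.166 and 0.452). Without L4 hermaphrodite repeat 3, hrde-1 was not called in hermaphrodites, at 1.16 (adjusted p = 0.0695). Of all genes, 15.9% rose and 10.0% fell in males, and 16.1% rose and 7.87% fell in hermaphrodites. At YA relative to L4, alg-3, alg-4 and csr-1 were called higher in males, where 10.1% of all genes rose and 12.7% fell. alg-2, hrde-1 and ergo-1 were called higher in hermaphrodites, where 21.2% rose and 24.0% fell. alg-2 rose 3.30-fold there (adjusted p = 1.02e-05). wago-1 had a log2 fold change of 0.99 ± 0.28 in males (adjusted p = 0.00513), just under the fold limit.

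Tests of the change in the sex difference gave 2 of 9 members between L3 and L4, alg-3 and alg-4, beside 10.7% of all genes. Between L4 and YA, 7 of 9 members were called beside 37.4% of all genes: alg-3, alg-4, csr-1 and prg-1 toward males, and alg-2, ergo-1 and hrde-1 toward hermaphrodites. Over all 5 stages together (F test), 8 of 9 members were called beside 53.1% of all genes, the exception being alg-1 (adjusted p = 0.867). Side by side, both sperm-linked members and none of the 7 general members were called higher in males at L3. At YA both sperm-linked members were called higher in males, and 1 of the 7 general members was called higher and 3 lower. The median log2 fold change at YA was 3.05 for the sperm-linked and -0.505 for the general members, against -0.001 over all genes. In stage order, the sperm-linked members were highest in YA males, and L4 male, L4 hermaphrodite and YA hermaphrodite levels followed. The L4 and YA hermaphrodite ranges overlapped for both genes. prg-1 was highest in L4 hermaphrodites, whose range overlapped that of YA males, and csr-1 was highest in YA males, above every other group. wago-1 was highest in YA hermaphrodites, overlapping L4 hermaphrodites, and hrde-1 and ergo-1 in YA hermaphrodites, apart from every other group. For hrde-1 the gap was narrow, from 13.7 CPM in YA hermaphrodite repeat 1 to 13.5 CPM in L4 hermaphrodite repeat 3.

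Of 13 further Argonaute genes, 12 were in the table and 9 were tested, and their calls went both ways. wago-10 was called higher in males at L3, L4 and YA. It averaged 3.74 CPM in males and 0.636 CPM in hermaphrodites at L3 (adjusted p = 8.31e-05), 11.6 CPM in males and 4.31 CPM in hermaphrodites at L4 (adjusted p = 0.0011), and 24.1 CPM in males and 1.45 CPM in hermaphrodites at YA (log2 fold change 4.01 ± 0.39, adjusted p = 5.08e-10). ppw-2, a germline silencing Argonaute also named wago-3, and wago-4, which acts in inherited silencing, were lower in males at the same 3 stages. At YA, ppw-2 had 28.5 to 45.6 CPM in males and 68.3 to 271 CPM in hermaphrodites (log2 fold change -2.32 ± 0.30, adjusted p = 2.72e-08), and wago-4 had 7.79 to 11.4 CPM in males and 34.9 to 62.1 CPM in hermaphrodites (log2 fold change -2.30 ± 0.29, adjusted p = 1.79e-08). sago-2, a secondary Argonaute, was lower in L3 males (log2 fold change -1.06 ± 0.32, adjusted p = 0.0213) and higher in YA males (1.80 ± 0.34, adjusted p = 2.15e-05). prg-2 was lower in males at L4 (-1.36 ± 0.35, adjusted p = 0.00222), as prg-1 was, and nrde-3, a nuclear Argonaute of the soma, was lower in males at YA (-2.01 ± 0.38, adjusted p = 2.15e-05), with overlapping ranges of 2.72 to 4.27 CPM in males and 2.35 to 24.6 CPM in hermaphrodites.

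Genes listed for small RNA pathways leaned toward hermaphrodites. The list was drawn up by gene name and includes the general export factor xpo-2, and a small RNA role of each gene was not tested. Of 62 listed genes, 42 were in the table and 30 were tested. None was called at L1, L2 or L3. At L4, 13 were called lower in males and none higher, beside 14.3% and 14% of all genes, with a median log2 fold change of -0.88, against 0.051 over all genes. The 4 with the smallest p were nrde-2, a nuclear silencing factor, with 4.39 to 7.52 CPM in males and 15.1 to 19.3 CPM in hermaphrodites (adjusted p = 3.10e-06), the piRNA transcription factor prde-1 (log2 fold change -3.34 ± 0.56, adjusted p = 1.04e-05), mut-15 of the Mutator foci (-1.20 ± 0.27, adjusted p = 0.000561) and the double-stranded RNA importer sid-1 (-2.91 ± 0.73, adjusted p = 0.00176). Of these, sid-1 overlapped between the sexes, at 0 to 1.28 CPM in males and 0.422 to 7.18 CPM in hermaphrodites. At L4, 14 of 17 oocyte genes and 6 of 18 genes of the germline of both sexes were also called lower in males. Their median log2 fold changes were -2.65 and -0.86, and their part in the pathway counts was not tested. Without L4 hermaphrodite repeat 3, which was also the highest for hrde-1, 8 pathway genes were called lower. At YA, 13 were called lower and 1 higher in males, beside 22.1% and 22.5% of all genes, with a median of -1.11, against -0.001. At YA, 15 of 17 oocyte genes and 11 of 18 genes of the germline of both sexes were also called lower in males, and their part in the pathway counts was not tested. The 4 with the smallest p were the nuclear export factor xpo-2 (-2.76 ± 0.27, adjusted p = 4.65e-11), the exonuclease xrn-2 (-2.16 ± 0.22, adjusted p = 1.79e-10), eri-3 of the complex that makes primary small interfering RNAs (-2.11 ± 0.26, adjusted p = 1.18e-08) and the germ granule helicase cgh-1 (-1.38 ± 0.18, adjusted p = 2.54e-08). The gene called higher in YA males was eri-6 (1.08 ± 0.47, adjusted p = 0.0488). Its ranges overlapped, at 0.866 to 2.46 CPM in males and 0.392 to 1.23 CPM in hermaphrodites. At YA with hermaphrodite repeats 2 and 3 only, 9 were called lower and none higher in males, and without L4 male repeat 2 7 were called lower.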

How the data were processed

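Per the labels and the study's methods, the authors trimmed reads with cutadapt, aligned them to WBcel235 with STAR 2.4.2a, counted them per gene with HTSeq after collapsing UMIs, and deposited raw UMI counts for 40 libraries. The 120 per-sample columns of the authors' normalised, batch-adjusted and variance-stabilised values and the 315 columns of their own comparisons were not used. Repeats are labelled as biological. Members and gene lists were chosen with earlier results of these data known. Genes were filtered (filterByExpr, minimum count 10, minimum total 15), normalised by TMM and fitted in 1 edgeR quasi-likelihood model of the 10 groups (edgeR 4.0.16, limma 3.58.1, R 4.3.3). Contrasts were males minus hermaphrodites at each stage, consecutive stages within a sex, and the change of the sex difference. A call needed an adjusted p of at most 0.05, a change of at least 1 on the log2 scale and a mean normalised count no lower than 5, and for the change of the sex difference the adjusted p alone. Standard errors were the log2 fold change divided by the square root of F. The count floor was 3 counts over a group. Besides the members, the genes named were the 3 most alike per member and, of the pathway list, the 4 with the smallest p. DESeq2 1.42.0, another normalisation, no filter, stages fitted alone, thinned counts, no fold limit, a replicate block and leaving out each library were alternatives. On simulated counts of 8110 genes at L3, 78 of 100 genes changed 3-fold and 100 of 100 changed 8-fold were called in the right direction. Deviations of same-numbered male and hermaphrodite libraries at L1 had r = 0.587, 0.136, 0.371 and 0.273. The highest r of each male library with another number was -0.224, 0.348, 0.192 and 0.24. At the later stages the same-number r lay between -0.289 and 0.23. The blocked log2 fold change of prg-1 at L1 was 1.48 (adjusted p = 0.000418). Locus positions came from Ensembl's annotation of the same build.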

Additional observations from a re-analysis of the deposited data

Results flagged for a closer look

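In 3 of 84 groups of 4 libraries, 1 library stood apart from the others by Dixon's test at the 95% level, where chance gives about 1 in 20 groups. These were alg-4 in L4 male repeat 1, the lowest of its group at 25.1 CPM, prg-1 in L3 male repeat 1, the lowest at 44.8 CPM, and hrde-1 in L4 hermaphrodite repeat 3, the highest at 13.5 CPM.

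The sex difference itself changed between stages for 7 genes by the interaction test of edgeR, all on the log2 scale, males minus hermaphrodites, later minus earlier stage. Between L3 and L4 it changed by -2.17 for alg-3 (adjusted p = 0.0177) and by -2.72 for alg-4 (adjusted p = 0.00182). Between L4 and YA it changed toward males by 1.89 for alg-3 (adjusted p = 0.00179), 2.12 for alg-4 (adjusted p = 0.000191), 1.63 for csr-1 (adjusted p = 0.00206) and 1.52 for prg-1 (adjusted p = 0.000188). Over the same step it changed toward hermaphrodites by -2.60 for alg-2 (adjusted p = 1.36e-05), -2.48 for ergo-1 (adjusted p = 1.81e-06) and -2.17 for hrde-1 (adjusted p = 0.00503).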

How the results depend on the processing

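Of 48 member comparisons called, 38 kept their call in every alternative run, 10 lost it in at least 1 and 0 turned direction. Of 83 not called, 13 were called in at least 1. Members called higher in males at L4, 1 in the fit reported, were 2 with DESeq2 size factors, without the low-count filter, with DESeq2's Wald test, with each stage fitted alone, with thinned counts and without a fold limit, and 1 to 2 when a library was left out. Members called lower in males at L3 were 1 rather than 0 without a fold limit, and at L4 they were 1 to 3 when a library was left out, the 1 without L4 hermaphrodite repeat 3. At L4 prg-1 also lost its call as lower in males under 4 other settings. These were DESeq2 size factors (-0.854), no low-count filter (-0.929), DESeq2's Wald test (-0.855) and each stage fitted alone (-0.985). At YA, members called higher in males, 3 in the fit reported, were 3 to 4 when a library was left out and 4 with YA hermaphrodite repeats 2 and 3 only. There prg-1 was also called without a fold limit, at 0.51 (adjusted p = 0.0454), and alg-1 with thinned counts, at 1.13 (adjusted p = 0.0317). In males at L2 against L1, 1 rather than 3 members was called higher with thinned counts. At YA against L4, males had 5 rather than 3 called higher with DESeq2 size factors, no filter or DESeq2's test, 3 to 5 called higher and 0 to 1 called lower when a library was left out. In hermaphrodites, members called lower at L2 were 0 to 1 when a library was left out. Those called higher at L3, 2 in the fit reported, were 1 with DESeq2 size factors, no filter or DESeq2's test, 0 with thinned counts and 1 to 2 when a library was left out. Those called lower at YA, 0 in the fit reported, were 1 with thinned counts and 1 with YA hermaphrodite repeats 2 and 3 only, and 0 to 1 when a library was left out. The change of the sex difference between L3 and L4 was called for 1 rather than 2 members with thinned counts, and for 1 to 2 when a library was left out. With thinned counts the call of csr-1 in males at L2 was lost at 0.96, and that of hrde-1 for the sex difference at YA against L4 at -1.67 (adjusted p = 0.058). The replicate block at L1 left prg-1 at 1.48 and changed no member call there. Small RNA pathway genes called lower in males at YA, 13 in the fit reported, were 5 without the filter, 8 with thinned counts and 14 with the block, and those at L4 were 6 with thinned counts. Except where a value shows it, the cause was not tested. Counts under about 20 in L1 to L3 libraries limit alg-3, alg-4, csr-1, wago-1 and hrde-1 there.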
